A study of Mus musculus with 7 samples.

Results

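SOCS1, SOCS2, SOCS3 and CISH, the kinases PIM1 and PIM2, and the kinase JAK2 form a feedback loop around cytokine receptors. Their 7 genes were followed in mouse spleen monocytes treated with an antiphospholipid antibody or with agonists of endosomal Toll-like receptors. The members were the probe sets whose single gene symbol is Socs1, Socs2, Socs3, Cish, Pim1, Pim2 or Jak2. This gave 11 probe sets for 7 of the 22180 genes with a single-symbol probe set on the array. All 7 passed the filter on low values, which asked for 5 log2 units or more on any of the 7 arrays.

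Cytokines that lack receptor kinases of their own, such as interferons and many interleukins, signal through Janus kinases (JAKs) bound to their receptor chains. An activated JAK phosphorylates STAT transcription factors, which then enter the nucleus, and the genes they switch on include those of the SOCS proteins, of CISH and of the PIM kinases. SOCS1 and SOCS3 block JAKs directly, CISH and SOCS2 compete for docking sites on receptors, and the SOCS box shared by the family recruits a ubiquitin ligase. PIM kinases promote survival and growth of the cell.

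Each of the 7 Mouse Gene 2.0 ST arrays carried RNA of spleen monocytes from 1 mouse under 1 condition, and all the cells had wild-type EPCR, a receptor for protein C. The monoclonal antiphospholipid antibody HL7G (400 ng/ml) was measured in mouse 1 and mouse 2. R848 (2 µg/ml, a TLR7 agonist), CpG B (2.5 µM, a TLR9 agonist) and poly I:C (1 µg/ml, a mimic of double-stranded RNA sensed by TLR3) were measured in mouse 1 alone, so none of these 3 groups had a replicate. Unstimulated cells were measured in both mice. Stimulation lasted 3 h. An IgG condition of the protocol was not analysed here, so the antibody is set against cells without any antibody.

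All levels are deposited log2 values, and a difference of 1 is a doubling. Array medians lay between 4.40 and 4.54. The unstimulated arrays, above all that of mouse 1, stood apart: Actb, the cytoskeletal actin, read 7.77 to 9.34 on the 5 stimulated arrays against 5.02 and 6.81 on those of unstimulated mouse 1 and mouse 2. B2m, a subunit of MHC class I, read 9.23 to 10.3 on the stimulated arrays against 5.74 and 7.90, and Gapdh, of glycolysis, was opposite, with 7.73 to 8.32 against 9.13 and 8.75. These arrays are the baseline of every rise with a stimulus, RNA quality and time in culture are not among the labels, and the part of this shift in the members' differences was not tested. Of the markers of the labelled cell type, 8 of 14 were bright enough to be tested, while Ly6c2 and Ccr2 stayed dim on every array (3.74 to 4.38 and 3.76 to 4.09). The 8 had a median HL7G difference of 0.44, with 1, Lyz2, called higher and 0 lower. Among the 8, Cx3cr1 read lower with HL7G (5.64 and 5.26) than on the unstimulated arrays (6.05 and 6.50). B cell and T cell markers were present, with median HL7G differences of 1.33 and 0.77. Of those tested, 7 of 9 B cell markers and 3 of 8 T cell markers were called higher, beside 18.2% of all genes called. NK cell markers went the other way, with a median of -0.53 over the 2 tested and 0 called. The B cell markers summed to log2 levels of 10.1 and 10.2 on the HL7G arrays, 9.77 to 9.91 on the agonist arrays and 8.92 and 9.48 on the unstimulated arrays. The sum over T cell markers was 9.38 and 9.19 with HL7G, 8.50 to 8.69 with the agonists and 8.15 and 8.31 without stimulation. Of the markers with a probe set, 9 of 10 B cell markers and 8 of 8 T cell markers reached the level needed for testing. Without the unstimulated array of mouse 1, 0 of the 9 B cell markers were called. The part of lymphocytes in the members' differences was not tested. In such bulk samples a change in the share of a cell type and a change in RNA per cell cannot be told apart.

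The sequences around the starts of the genes are shown first, since SOCS genes are known targets of STATs and of interferons. RefSeq windows (assembly GRCm38.p6) reaching from 250 bases before to 50 bases after the start of a transcript were found for 6 of the 7 members. They were searched on both strands for TTCNNNGAA (STAT), for GAAA followed by GAAA after any 2 bases (interferon response) and for GGGA followed by TTCC after any 2 bases (NF-kB). Matches were found in the windows of Cish, Socs3 and Socs1, printed here 5′ to 3′ on the gene's strand with the matches in capitals. The window of Cish lies at chr9:107296409-107296708 (plus strand), that of Socs3 at chr11:117969317-117969616 (minus strand) and that of Socs1 at chr16:10785487-10785786 (minus strand).
Cish: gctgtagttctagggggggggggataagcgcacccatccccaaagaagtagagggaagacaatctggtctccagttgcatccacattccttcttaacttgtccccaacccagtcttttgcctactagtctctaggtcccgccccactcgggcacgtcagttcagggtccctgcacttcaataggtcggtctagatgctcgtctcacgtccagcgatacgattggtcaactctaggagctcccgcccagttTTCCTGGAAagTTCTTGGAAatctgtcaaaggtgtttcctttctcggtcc
Socs3: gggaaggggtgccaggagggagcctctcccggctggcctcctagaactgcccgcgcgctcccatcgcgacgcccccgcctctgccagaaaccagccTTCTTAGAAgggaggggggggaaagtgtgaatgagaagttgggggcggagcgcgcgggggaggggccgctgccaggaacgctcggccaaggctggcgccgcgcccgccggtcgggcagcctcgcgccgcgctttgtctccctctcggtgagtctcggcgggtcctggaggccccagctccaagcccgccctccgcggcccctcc
Socs1: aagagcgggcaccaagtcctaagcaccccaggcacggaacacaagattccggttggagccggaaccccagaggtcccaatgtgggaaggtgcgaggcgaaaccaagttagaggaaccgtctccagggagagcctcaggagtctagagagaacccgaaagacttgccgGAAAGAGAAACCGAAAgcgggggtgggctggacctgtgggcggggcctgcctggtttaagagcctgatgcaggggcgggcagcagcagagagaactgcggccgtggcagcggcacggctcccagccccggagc

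Cish carried 2 STAT matches, which begin at the first base of the transcript and at base 12. Socs3 carried 1, beginning 154 bases before the start. A STAT match was present in 8.3% of 32851 such windows of the mouse genome. Socs1 carried 2 overlapping interferon-response matches, beginning 83 and 77 bases before the start, and 3.44% of the windows held one. The windows of Pim1, Pim2 and Jak2 held none of the 3 motifs, and none of the 6 members searched held the NF-kB motif, which 1.47% of windows held. Socs2 had no window and was not searched. These are matches of letters in a short window and show no binding.

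The levels of the members on the 7 arrays fell into 3 kinds. Jak2 and Pim1 were the members with the widest range, Socs3, Pim2 and Socs1 had a narrower one, and Socs2 and Cish were nearly flat. The kinase gene Jak2 and the survival kinase gene Pim1 rose 4.32-fold and 4.66-fold with HL7G, and Socs3, which encodes an inhibitor of JAK activity, rose 1.73-fold. A gene was called at a Benjamini-Hochberg adjusted p under 0.05 in limma, over the 11127 genes tested. By that rule 3 of the 7 members were called higher with HL7G and 0 lower, beside 18.2% of all genes tested (16.3% called higher and 1.89% lower). The median difference of the members was 0.66, against 0.06 over all genes tested. Bright genes differed more: the 1337 whose levels averaged 6 or more over the arrays had a median of 0.86. Tested as a set of their own, 457 of these 1337 were called. The set held 3 of the members, of which 2 were called. These 3 were Pim1, Jak2 and Pim2, with differences of 2.22, 2.11 and 0.66. The median of 0.66 covers all 7 members, dimmer ones included, so it is not matched in level to the 0.86 of the bright genes.

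Jak2, the kinase bound to the receptors of growth hormone, erythropoietin and GM-CSF and, with JAK1, to the interferon-gamma receptor, read 7.74 and 6.94 with HL7G in mouse 1 and mouse 2. It read 6.09 with R848, 5.76 with CpG B and 6.21 with poly I:C, and 5.30 and 5.16 in unstimulated mouse 1 and mouse 2. The HL7G arrays were the highest, the agonist arrays lay in between and the unstimulated arrays were the lowest, with no overlap among these 3 sets. Jak2 was the only member whose HL7G arrays both lay above all 3 agonist arrays, as did 19.2% of the genes tested. HL7G averaged 7.34 ± 0.57 and unstimulated cells 5.23 ± 0.10 (SD, n = 2 each). The difference of 2.11 ± 0.30 (SE, 95% interval 1.40 to 2.82, limma adjusted p = 0.0120) was a 4.32-fold rise and was present in both mice, at 2.44 in mouse 1 and 1.78 in mouse 2. Without the unstimulated array of mouse 1, 2.18 remained with an adjusted p of 0.0878.

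Pim1, which encodes a constitutively active serine/threonine kinase, read 9.51 and 8.09 with HL7G in mouse 1 and mouse 2. It read 8.61 with R848, 8.71 with CpG B and 8.32 with poly I:C, and 6.46 and 6.70 in unstimulated mouse 1 and mouse 2. Every stimulated array lay more than a log2 unit above both unstimulated arrays, and the agonist arrays fell between the HL7G arrays of the 2 mice. HL7G averaged 8.80 ± 1.01 and unstimulated cells 6.58 ± 0.17 (SD, n = 2 each). The difference was 2.22 ± 0.44 (SE, 95% interval 1.18 to 3.26, limma adjusted p = 0.0198), a 4.66-fold rise. It was 3.06 in mouse 1 and 1.39 in mouse 2, the largest gap between the mice among the 7 members. The call was lost without the unstimulated array of mouse 1 (2.10, adjusted p = 0.126) or of mouse 2 (2.34, adjusted p = 0.0565). It was also lost with arrays scaled to each other by loess (0.69, adjusted p = 0.209), and quantile normalization gave 1.43.

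Socs3, which encodes the inhibitor that acts on JAKs bound to gp130 and related receptors, read 6.33 and 6.20 with HL7G in mouse 1 and mouse 2. It read 6.33 with R848, 5.85 with CpG B and 6.11 with poly I:C, and 5.37 and 5.57 in unstimulated mouse 1 and mouse 2. All 5 stimulated arrays lay above both unstimulated arrays, with R848 level with the HL7G arrays and CpG B the lowest of the 5. HL7G averaged 6.26 ± 0.09 and unstimulated cells 5.47 ± 0.14 (SD, n = 2 each). The difference was 0.79 ± 0.22 (SE, 95% interval 0.28 to 1.30, limma adjusted p = 0.0468), close to the threshold. With the mouse as a block its adjusted p was 0.0878, and the call was also lost without the HL7G array of mouse 1 (0.73, adjusted p = 0.110). Leaving out the unstimulated array of mouse 1 gave 0.69 (adjusted p = 0.283), and leaving out that of mouse 2 gave 0.89 (adjusted p = 0.139). Quantile normalization gave 0.41 and loess 0.34, less than the reported value by more than 1.5 times. The call of Socs3 was also lost with loess and with its probe sets averaged. With arrays centred on the median, quantile normalization or a variance trend, 2 members were called in place of 3. The call of Socs3 thus depended on the setting.

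Pim2, a kinase of the same family that PIM1 belongs to and prominent in lymphoid cells, read 6.87 and 6.78 with HL7G, 6.80 with R848, 6.27 with CpG B and 6.66 with poly I:C. It read 6.30 and 6.03 in unstimulated mouse 1 and mouse 2. The HL7G arrays lay above both unstimulated arrays, but the CpG B array fell between the unstimulated ones. The HL7G difference of 0.66 ± 0.22 (SE, 95% interval 0.14 to 1.18) did not pass the test (limma adjusted p = 0.0787). Its sign turned with loess (-0.14) and with quantile normalization (-0.0076).

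Socs1, the inhibitor that restrains interferon signalling most strongly, read 6.02 and 5.49 with HL7G, 5.89 with R848, 5.57 with CpG B and 6.03 with poly I:C. It read 5.47 and 5.27 in unstimulated mouse 1 and mouse 2. All 5 stimulated arrays were above both unstimulated arrays, although HL7G in mouse 2 and unstimulated mouse 1 nearly touched. The HL7G difference of 0.38 ± 0.26 (SE, 95% interval -0.22 to 0.99) did not pass the test (limma adjusted p = 0.310).

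Socs2, known as a brake on growth hormone signalling, read 5.28 and 5.04 with HL7G, 5.46 with R848, 5.22 with CpG B, 5.38 with poly I:C and 5.34 and 5.40 without stimulation. Cish, which is induced by cytokines that act through STAT5, read 5.74 and 5.48 with HL7G, 5.43 with R848, 5.78 with CpG B, 5.82 with poly I:C and 5.84 and 5.67 without stimulation. Both HL7G arrays of Socs2 lay below its unstimulated arrays, within a narrow range, and in Cish the groups overlapped. The HL7G difference was -0.21 ± 0.22 for Socs2 (SE, 95% interval -0.72 to 0.31, limma adjusted p = 0.499). For Cish it was -0.14 ± 0.22 (SE, 95% interval -0.67 to 0.39, limma adjusted p = 0.663). Neither interval reached a doubling or a halving on these probe sets.

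**Figure D1:**
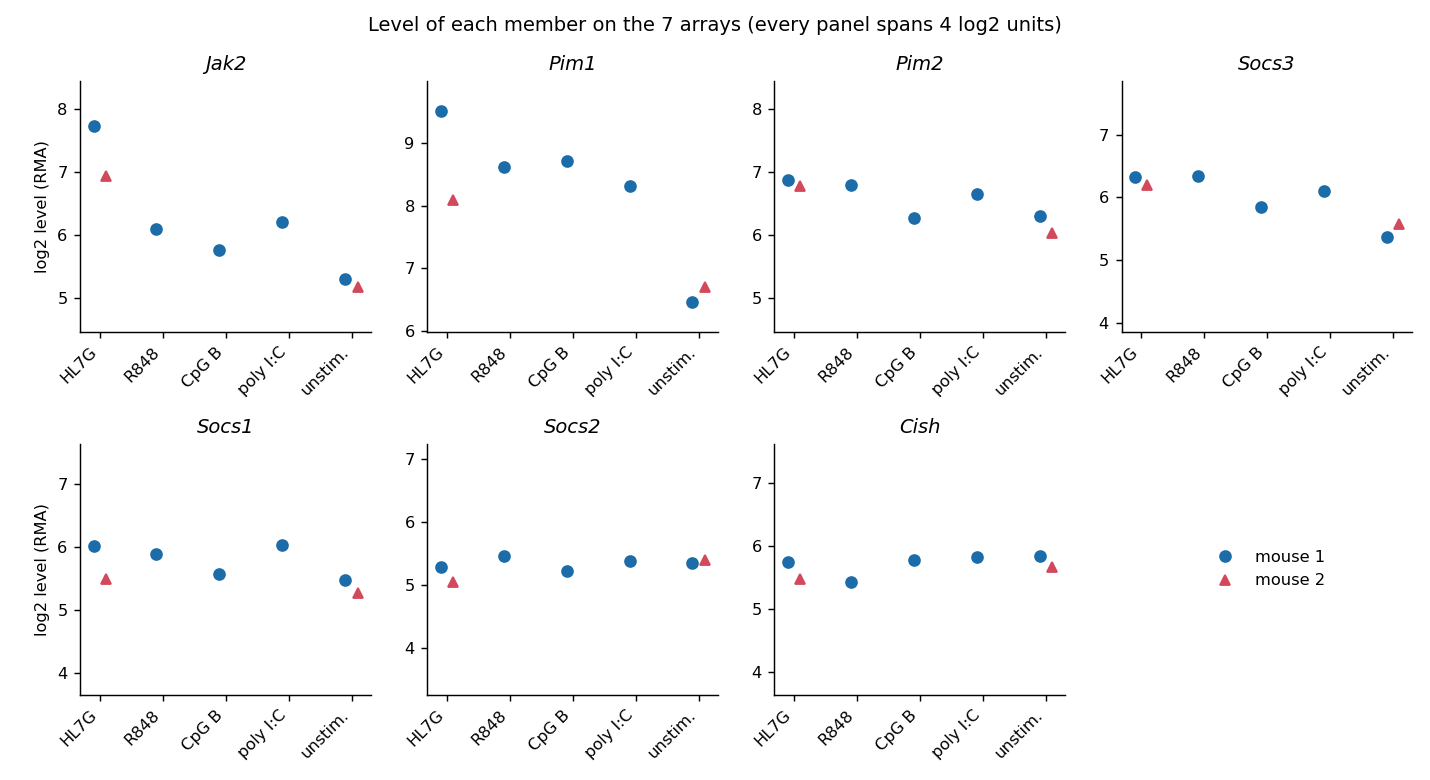
The log2 level of each of the 7 genes (vertical axis, RMA scale) is plotted for HL7G, R848, CpG B, poly I:C and unstimulated cells, with a circle for each array of mouse 1 and a triangle for each array of mouse 2. Jak2 separates HL7G (7.74 and 6.94) from the agonists (5.76 to 6.21), Pim1 is high under every stimulus, and Socs2 and Cish stay level.

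Both HL7G arrays lay above both unstimulated arrays for 5 of the 7 members (Socs1, Socs3, Pim1, Pim2 and Jak2), beside 40.5% of the genes tested. All 5 stimulated arrays did so for 4 of the 7 (Socs1, Socs3, Pim1 and Jak2), beside 27.4% of the genes tested.

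The 3 Toll-like receptor agonists gave Pim1 differences near that of HL7G, and smaller differences than HL7G for Jak2. None of the 7 members was called for any agonist, and neither was any of the 11127 genes tested in limma (0% called), with 1 array a group. At an unadjusted p under 0.05 the members numbered 2 with R848, 1 with CpG B and 3 with poly I:C, beside 2551, 1370 and 1054 genes of the whole table. The R848, CpG B and poly I:C arrays lay above both unstimulated arrays for 6, 4 and 5 members, beside 48.3%, 42.8% and 41% of the genes tested. The comparisons with unstimulated cells share the unstimulated arrays, so their values are given side by side and were not correlated.

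For Pim1 the difference from unstimulated cells was 2.03 ± 0.54 with R848 (SE, limma adjusted p = 0.107), 2.13 ± 0.54 with CpG B (0.243) and 1.74 ± 0.54 with poly I:C (0.461). Within mouse 1 alone these differences were 2.15, 2.25 and 1.86, against 3.06 with HL7G. When either HL7G array was left out, Pim1 was called with R848, CpG B and poly I:C (limma adjusted p = 0.0056, 0.0099 and 0.0270). These agonist differences do not contain the HL7G arrays, and the fit without one of them has the unstimulated pair as its only replicates, which lay closer together than the HL7G pair.

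For Jak2 the difference was 0.86 ± 0.37 with R848, 0.53 ± 0.37 with CpG B and 0.98 ± 0.37 with poly I:C (SE). Each agonist array was above both unstimulated arrays, and none of the differences passed the test (limma adjusted p = 0.222, 0.598 and 0.512).

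For Socs3 the difference was 0.86 ± 0.26 with R848, 0.37 ± 0.26 with CpG B and 0.63 ± 0.26 with poly I:C (SE), and R848 came nearest to the threshold (limma adjusted p = 0.132). Socs1 gave 0.52 ± 0.31 with R848, 0.20 ± 0.31 with CpG B and 0.66 ± 0.31 with poly I:C. Pim2 gave 0.63 ± 0.27 with R848, 0.11 ± 0.27 with CpG B and 0.49 ± 0.27 with poly I:C. In these 3 genes CpG B gave the smallest of the 3 values. Socs2 lay between -0.15 and 0.09 and Cish between -0.33 and 0.07 over the 3 agonists.

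**Figure D2:**
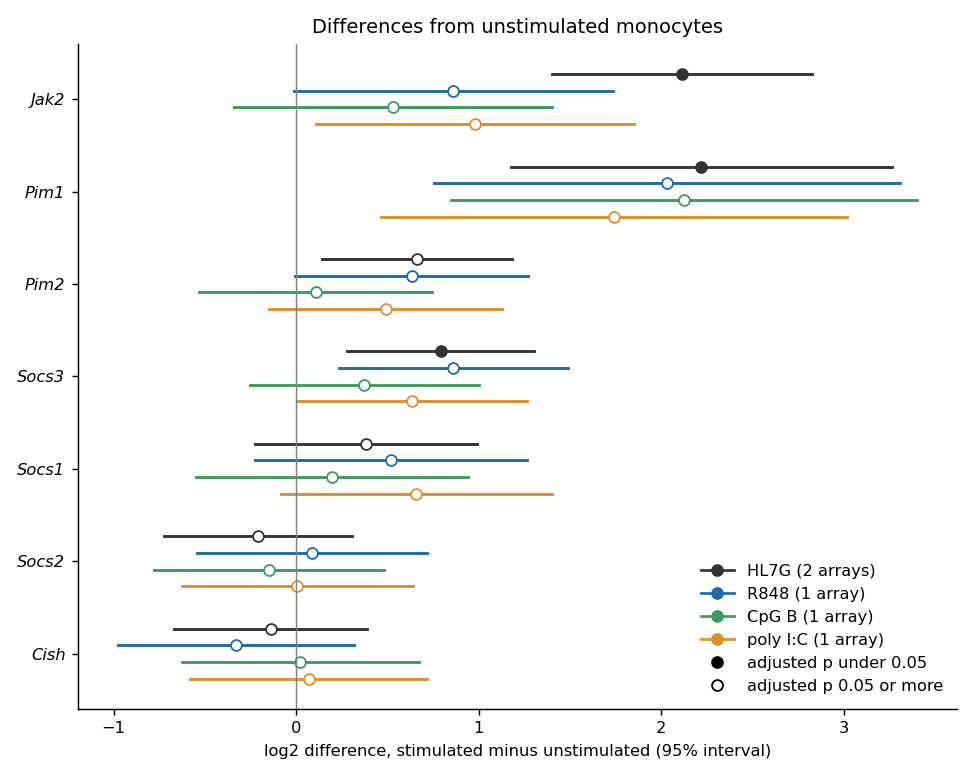
The difference of each gene from unstimulated cells (horizontal axis, log2) is drawn with its 95% interval for HL7G, R848, CpG B and poly I:C, with filled points at an adjusted p under 0.05. The HL7G points of Jak2 (2.11), Pim1 (2.22) and Socs3 (0.79) are filled, and the 4 points of Pim1 lie between 1.74 and 2.22.

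Set against the mean of the 3 agonists, HL7G was higher in Jak2 by 1.32 ± 0.27 (SE, 95% interval 0.67 to 1.97). This did not pass the test over all genes (limma adjusted p = 0.338), in which 0 of the 11127 genes were called (0%) and 1203 had an unadjusted p under 0.05. Against single agonists, HL7G minus R848 was 1.25 ± 0.37, HL7G minus CpG B 1.58 ± 0.37 and HL7G minus poly I:C 1.13 ± 0.37 (SE; limma adjusted p = 0.930, 0.585 and 0.608). The other 6 members lay between -0.19 and 0.25 against the mean of the agonists. The agonist arrays are all from mouse 1, and HL7G is the mean of both mice. For Pim1 the 0.25 was 0.97 without the HL7G array of mouse 2, -0.46 without that of mouse 1 and 0.55 with the mouse as a block. Within mouse 1, Pim1 with HL7G was 0.90 above R848, 0.81 above CpG B and 1.19 above poly I:C. Socs1 and Cish turned sign with the block (0.11 and 0.047). The interval was widest for Pim1 (-0.70 to 1.21), which holds both no difference and a doubling with HL7G over the agonists.

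R848 and CpG B, whose receptors signal through MYD88, were also set against poly I:C, whose receptor TLR3 signals through TRIF. The members' differences lay between -0.30 (Socs1) and 0.34 (Pim1), and 0 members and 0 genes (0%) were called in limma (adjusted p = 0.9999 for each member). At an unadjusted p under 0.05 there were 0 members and 187 genes.

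Within each gene the 5 groups were put in order of level, which gave 28 neighbouring pairs over the 7 members. In limma 0 of these 28 pairs differed at an adjusted p under 0.05, and 2 did at an unadjusted p under 0.05. These were Pim1 in poly I:C over unstimulated cells and Jak2 in HL7G over poly I:C. The fitted SD between arrays of 1 group was 0.44 for Pim1, 0.30 for Jak2 and 0.22 to 0.26 for the other members.

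The members Socs2, Socs3, Cish and Pim1 had a second and dimmer probe set, and all 4 of these stayed under the level needed for testing. The sources used here do not place them within the genes. The second probe set of Socs2 read 4.90 and 4.03 with HL7G in mouse 1 and mouse 2, 4.96 with R848, 3.52 with CpG B and 4.05 with poly I:C. It read 3.40 and 3.36 in the unstimulated cells. Here every stimulated array was above both unstimulated arrays, unlike on the brighter probe set.

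Tested on its own among 23521 probe sets, the second Socs2 probe set differed by 1.08 ± 0.29 with HL7G (SE, limma adjusted p = 0.058) and by 1.58 with R848 (adjusted p = 0.088). The brighter Socs2 probe set went the other way with HL7G, at -0.21. The second probe set of Pim1 gave -0.13 (adjusted p = 0.686) and that of Socs3 0.01 (0.983), beside 2.22 and 0.79 on the brighter ones. The second probe set of Cish gave 0.45 (adjusted p = 0.280), again of opposite sign to the brighter one. With a gene's probe sets averaged in place of the brighter one, Pim1 fell to 1.04 (limma adjusted p = 0.0521) and Socs3 to 0.40 (0.258), which left Jak2 as the only member called.

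**Figure D3:**
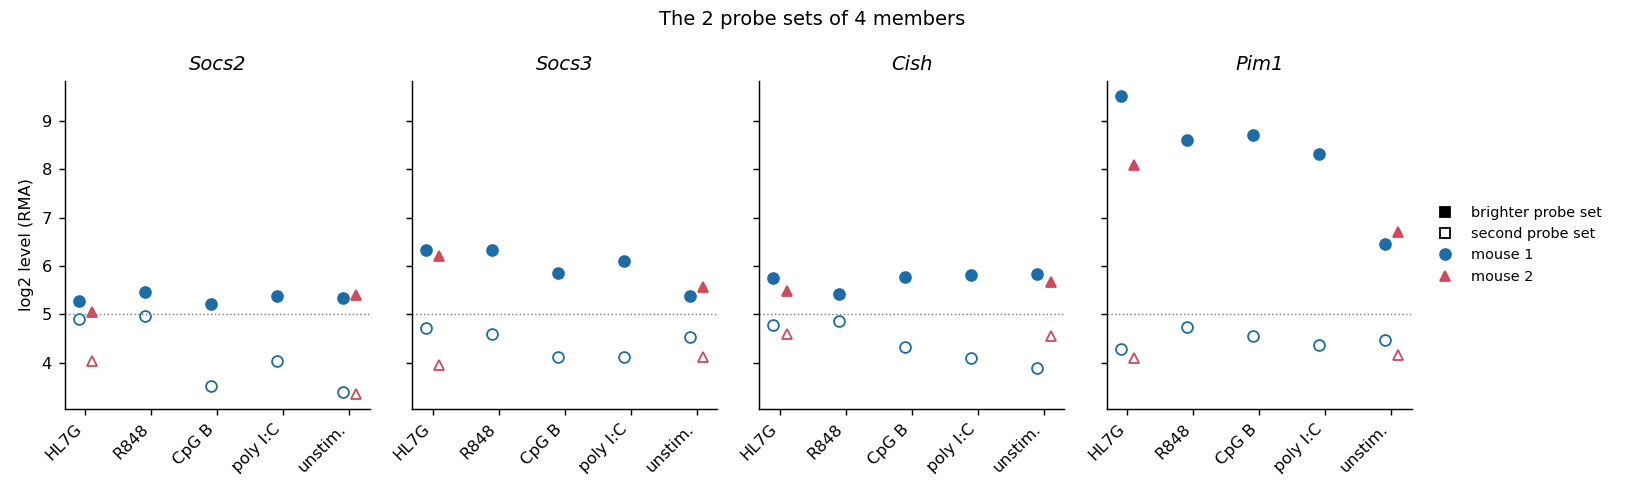
The 2 probe sets of Socs2, Socs3, Cish and Pim1 are plotted by treatment (vertical axis, log2 RMA level), with filled symbols for the brighter and open symbols for the second probe set, circles for mouse 1, triangles for mouse 2 and a dotted line at the level of 5 needed for testing. The second Socs2 probe set is above its unstimulated values (3.40 and 3.36) on every stimulated array, while the second Pim1 probe set stays between 4.09 and 4.74.

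The rest of the pathway around the members was read from 9 lists of genes. They were chosen by function, but with earlier results of these data known. Of the 72 list genes tested, 28 were called higher with HL7G and 0 lower, beside 16.3% and 1.89% of all genes tested. The same shares belong beside the counts of the single lists below. Among genes whose levels averaged 6 or more, 11 of 20 list genes were called, beside 457 of 1337 in all. Of the 72, 8 passed the filter only on HL7G arrays and so could only be tested where HL7G was high, and 4 of these 8 were called (Pias1, Il6, Il10ra and Cdkn1b). With no filter on low values, 26 of 102 list genes were called, beside 9.83% of all genes, and their median was 0.35 in place of 0.88. The STATs were called most often, at 5 of 6 with or without the filter, and at 2 of 6 without the unstimulated array of mouse 2. No gene of these lists was called with R848, CpG B or poly I:C. Without the unstimulated array of mouse 1, 0 of the 72 were called with HL7G, and without that of mouse 2, 13 were. Over the whole table these counts of called genes were 2 and 862, beside 2024 with all arrays.

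Among the cytokines, 2 of 9 tested were called, near the 18.2% of all genes. The list median was 0.14, but 0.045 over all 24 with no filter, -0.017 with loess and -0.15 with quantile normalization. Il6, the ligand of the gp130 receptor that SOCS3 restrains, read 5.03 and 4.63 with HL7G, 4.32 with R848, 3.50 with CpG B, 4.17 with poly I:C and 3.16 and 3.26 without stimulation. Both HL7G arrays were above all others, and Il6 reached the level for testing on that of mouse 1 alone, so it was tested only through the group where it was high. The difference was 1.62 ± 0.23 (SE, limma adjusted p = 0.0120), and a variance trend ended the call (adjusted p = 0.139). Il12a, a subunit of interleukin 12, rose by 0.97 ± 0.22 (adjusted p = 0.0270). The cytokine genes Il10 (3.91 to 4.53), Csf2 (3.83 to 4.54) and Ifnb1 (2.93 to 3.58) were too dim to be tested.

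Of the receptor chains, 7 of 18 tested were called, with a median of 1.03, while with no filter 5 of 27 were called and the median was 0.22. Without the HL7G array of mouse 1, 3 of the 18 were called. Il7r, which encodes the interleukin 7 receptor found mainly on lymphoid cells, rose by 2.58 ± 0.43 (SE, limma adjusted p = 0.0139). Ifngr1, a chain of the interferon-gamma receptor to which JAK1 binds, rose by 1.53 ± 0.22 (adjusted p = 0.0120). Il10ra (1.48 ± 0.29, adjusted p = 0.0203) and Il21r (1.42 ± 0.38, adjusted p = 0.0452), both receptors of interleukins, were higher as well. Il10ra passed the filter only on HL7G arrays. Il6st, which encodes gp130, gave 1.13 ± 0.35 and did not pass (adjusted p = 0.0648), while with the mouse as a block it did (0.0459). Il7r and Il21r belong to receptors of lymphocytes, and the B cell and T cell markers were higher on the same arrays. Against unstimulated cells, Il7r also differed by 2.05 with R848, 2.46 with CpG B and 1.90 with poly I:C. For Il21r these values were 1.22, 0.33 and 0.53. The part of lymphocytes in these differences was not tested.

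Of the other JAKs, Jak1 read 7.94 and 7.74 with HL7G, 7.10 with R848, 7.16 with CpG B, 6.64 with poly I:C and 5.14 and 6.08 without stimulation. The HL7G arrays were again the highest and the unstimulated arrays the lowest. The difference was 2.23 ± 0.33 (SE, limma adjusted p = 0.0124), near that of Jak2. Tyk2, the partner of JAK1 at the type I interferon receptor, gave 0.37 (limma adjusted p = 0.343). Tyk2 reached the level for testing only with HL7G in mouse 2 (5.29). Jak3 had no probe set with a single symbol and was not analysed here.

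The STATs had the highest list median, 1.68, and 5 of 6 tested were called. Stat2, part of the complex that type I interferon activates, read 8.26 and 6.85 with HL7G, 7.45 with R848, 6.62 with CpG B, 7.10 with poly I:C and 4.90 and 4.70 without stimulation. Every stimulated array was above both unstimulated ones, and the difference with HL7G was 2.75 ± 0.43 (SE, limma adjusted p = 0.0133). Stat3, the main STAT upstream of Socs3, rose by 1.82 ± 0.32 (adjusted p = 0.0161).

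Stat4, the STAT of interleukin 12 signalling, rose by 2.03 ± 0.27 (SE, limma adjusted p = 0.0120), Stat5b by 1.42 ± 0.31 (0.0250) and Stat6, the STAT of interleukin 4, by 1.54 ± 0.35 (0.0271). The exception was Stat5a, which with STAT5B drives Cish and Socs2, at 0.44 (adjusted p = 0.231). The sign of Stat5a turned with loess and with quantile normalization.

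Among other negative regulators of the pathway, 6 of 12 were called and the median was 1.08, or 0.66 with loess. Usp18, an interferon-induced protein that shields the type I interferon receptor, read 8.81 and 7.30 with HL7G, 7.77 with R848, 7.52 with CpG B, 8.13 with poly I:C and 5.54 and 4.97 without stimulation. Every stimulated array was above both unstimulated ones, HL7G in mouse 2 was below the 3 agonist arrays, and the HL7G difference was 2.80 ± 0.48 (SE, limma adjusted p = 0.0146). The phosphatase genes Ptpn11 (1.75 ± 0.24, adjusted p = 0.0120) and Ptpn6 (1.37 ± 0.21, adjusted p = 0.0127), whose products remove phosphate groups in cytokine signalling, rose too. Pias1, an inhibitor of DNA binding by STATs, passed the filter only on HL7G arrays and rose by 1.35 ± 0.33 (adjusted p = 0.0332).

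Of the proteins that the SOCS box recruits, 0 of 4 tested were called, with a median of 0.28 (0.92 with probe sets averaged and 0.040 with loess), and Elob, Rnf7 and Cul5 lay between 0.17 and 0.36. Eloc, an adaptor of that ligase, reached the level for testing only with HL7G in mouse 1 (5.33), and read 3.31 with HL7G in mouse 2. It was thus tested only through the group where it was high. The agonist arrays read 3.27 to 3.94 and the unstimulated arrays 2.42 and 2.73. Its difference of 1.74 ± 0.59 (SE) did not pass (limma adjusted p = 0.0809), but was called with a block for the mouse (0.0462). Without the HL7G array of mouse 2 the difference of Eloc was 2.75. Elob was called with its probe sets averaged (1.16, adjusted p = 0.0189). Of the other SOCS and PIM genes, 0 of 3 tested were called, with a median of 0.50, or 0.087 without the HL7G array of mouse 1. Socs4 was called without that of mouse 2 (1.55, limma adjusted p = 0.0059). Pim3, the third PIM kinase, gave 0.50 ± 0.22 (SE, limma adjusted p = 0.158). Socs5 (3.52 to 4.59) and Socs6 (3.76 to 4.33) were too dim to be tested.

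Downstream, 6 of 13 STAT-responsive genes were called, with a median of 1.18, which was 0.66 without the HL7G array of mouse 1 and 0.68 with loess, where 3 were called. Ccnd2, a cyclin of the G1 phase, rose by 2.53 ± 0.66 (SE, limma adjusted p = 0.0415). Myc, a growth regulator that PIM1 stabilises, read 9.09 and 7.59 with HL7G, 8.16 with R848, 8.38 with CpG B, 7.95 with poly I:C and 5.97 and 6.02 without stimulation. Like Pim1, it was high on every stimulated array and highest in HL7G mouse 1.

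The difference of Myc was 2.35 ± 0.45 (SE, limma adjusted p = 0.0191), which loess reduced to 0.94 (adjusted p = 0.0997). Mcl1, a survival factor of the BCL2 family, rose by 1.87 ± 0.31 (adjusted p = 0.0139), and Irf1, an interferon-regulated transcription factor, by 1.86 ± 0.24 (0.0120). Of the PIM substrates, 1 of 5 tested was called, near the 18.2% of all genes, and their median of 0.17 was -0.045 with quantile normalization. Cdkn1b, an inhibitor of the cell cycle, passed the filter only on HL7G arrays and rose by 1.18 ± 0.29 (adjusted p = 0.0338).

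**Figure D4:**
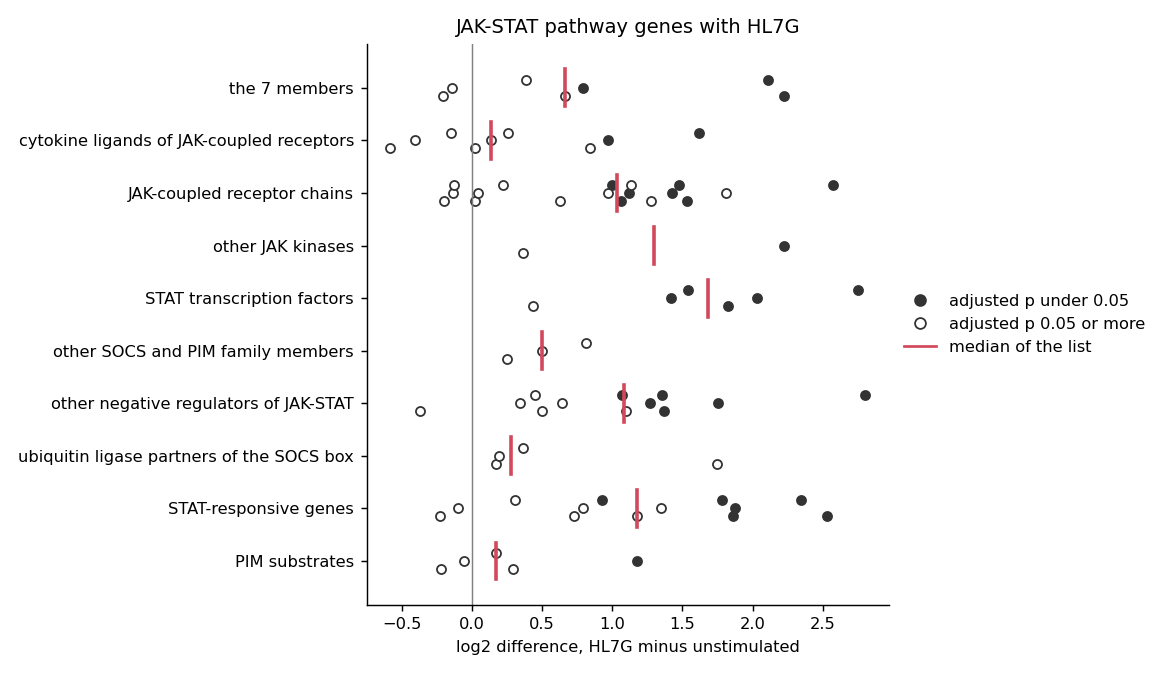
Each point is a tested gene of the 7 members or of a pathway list (rows), placed by its log2 difference of HL7G minus unstimulated cells, with filled points at an adjusted p under 0.05 and a red bar at the median of the row. The STAT row has 5 of 6 points filled and the highest median (1.68), and the row of SOCS-box partners has none filled and a median of 0.28.

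Genes whose pattern over the 7 arrays was nearest to that of a member were found by the root mean square distance between log2 levels, each centred on its mean. For Jak2 these were Crebrf, Dusp11 and Psmd8, at 0.152, 0.169 and 0.180 log2 units. For Pim1 they were Uba7 (0.103), Myc (0.106) and Dcun1d5 (0.113), so that Myc, a gene of the STAT-responsive list, was among the nearest 3. For Socs3 they were Rpl10a (0.0669), Cux1 (0.0701) and Lrrc59 (0.0717), and for Pim2 Dazap2 (0.0509), Tsen54 (0.0832) and Runx3 (0.0894).

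The remaining members had the nearest neighbours Faap24, Stard4 and Spc24 (Socs1, 0.0837 to 0.0901), Rhpn1, Sox5 and Zmiz1os1 (Socs2, 0.0414 to 0.0473), and Nek11, Muc3a and Zfp512 (Cish, 0.0624 to 0.0646). Flat genes lie near many others by this measure, and a small distance for Socs2 or Cish says little. The measure rests on 7 arrays from 2 mice.

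The differences of Jak2, Pim1 and Socs3 under every setting show how far each call rests on 1 choice. Jak2 kept its call in every setting tried but the removal of the unstimulated array of mouse 1, and its difference ran from 1.53 with loess to 2.51 without the HL7G array of mouse 2. Pim1 ran from 0.69 to 2.93, and its highest value came from leaving out that same array. Socs3 ran from 0.34 to 0.89 and had the most settings without a call.

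**Figure D5:**
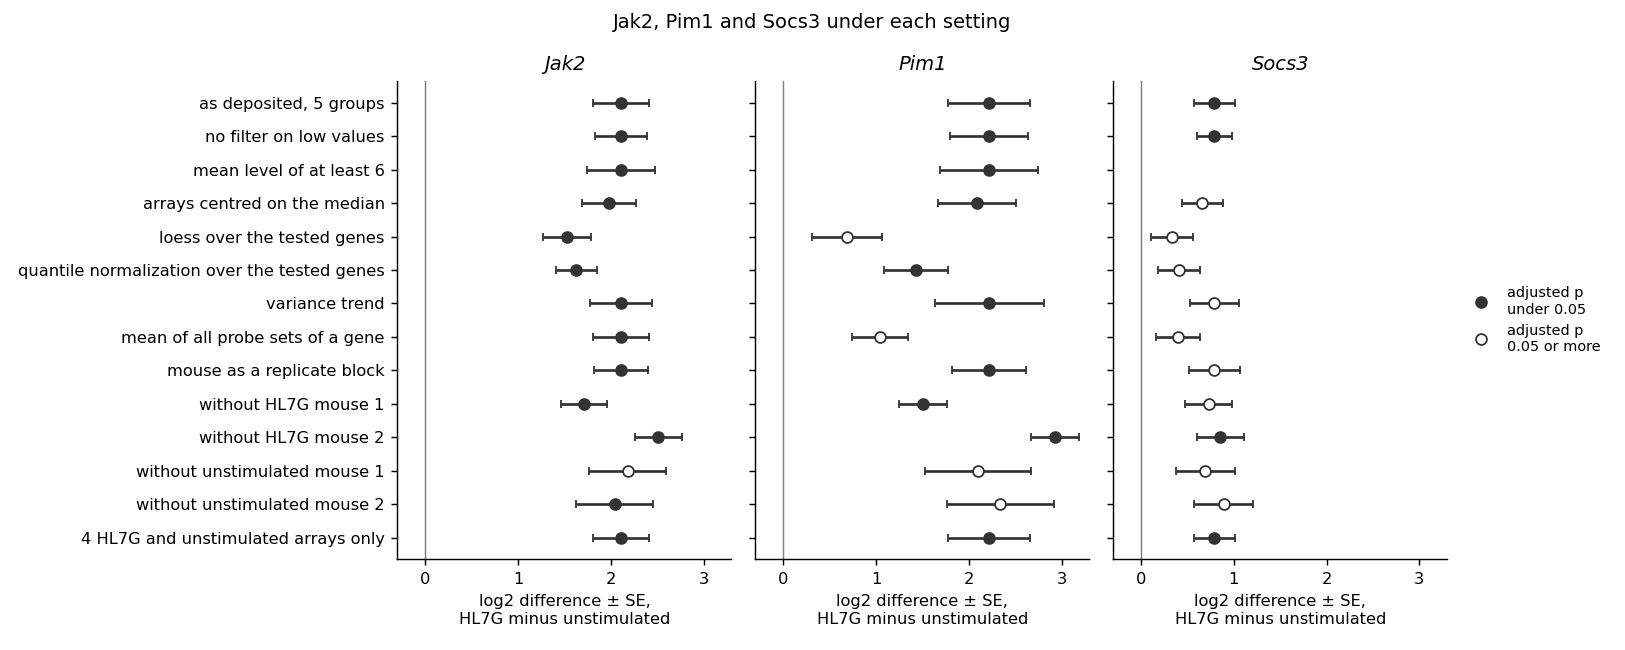
The log2 difference of HL7G minus unstimulated cells with its SE is drawn for Jak2, Pim1 and Socs3 (columns) under each setting of the processing and with each array left out (rows), with filled points at an adjusted p under 0.05. Jak2 is open in 1 row only, and Socs3 has no point in the row that asks for a mean level of at least 6, which its levels do not reach.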

How the data were processed

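Expression was measured in 7 samples from 2 mice in 5 groups. The authors deposited log2 levels of probe sets, and the submitters' processing notes name RMA, the Affymetrix Expression Console and the Transcriptome Analysis Console without a version. RMA subtracts background, makes the arrays' distributions alike and summarises probes, so shifts shared by most genes are no longer in the values. The table held 41345 probe sets, of which 23521 had a single gene symbol, 1814 several and 16010 none in the platform annotation used. A RefSeq table held the Entrez identifiers of 23328 of the single-symbol ones and changed 0 symbols. Of several probe sets of a gene that passed the filter (5 log2 units or more on any array), the brightest on average was used, which left 11127 genes.

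The 5 groups entered 1 limma fit (version 3.58.1, R 4.3.3) with variances moderated across genes. Tests were 2-sided, and p-values were adjusted by Benjamini-Hochberg over the 11127 genes. With 2 residual and 4.94 prior degrees of freedom, precision is limited by the number of arrays, and p-values rest on 2 animals. The single arrays of R848, CpG B and poly I:C were taken to vary as much as the pairs did. The mouse number in the labels names the animal, and so pairs the arrays; the deviations of HL7G and unstimulated arrays between mice had r = -0.146 over the genes tested. The mouse as a block was another setting. Other settings were no filter, a mean level of at least 6, arrays centred on the median, loess or quantile normalization, a variance trend, averaged probe sets of a gene, each array of a pair left out, and the 4 HL7G and unstimulated arrays alone. Each probe set tested on its own was added after seeing the data.

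The members and lists were chosen with earlier results of these data known. Named genes were the members, the 3 nearest genes of each, the called genes of a pathway list where there were at most 5 and otherwise the 4 with the largest difference, and a set of pathway genes always named. The fit was tested on simulated data.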

Additional observations from a re-analysis of the deposited data

Results flagged for a closer look

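The second probe set of Socs2, which the comparisons of genes did not use, was above the unstimulated arrays on all 5 stimulated arrays. Its HL7G difference was 1.08, with 1.49 in mouse 1 and 0.67 in mouse 2.

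On the second probe set of Socs3 the mice went opposite ways with HL7G, by 0.17 in mouse 1 and -0.15 in mouse 2. The gap between them was 0.32, and it was not tested.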

How the results depend on the processing

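The count of members called with HL7G was 3, and it was 1 with loess, 1 with a gene's probe sets averaged, and between 0 and 3 when 1 array was left out: 0 without the unstimulated array of mouse 1 and 1 without that of mouse 2. With 1 array left out the counts for R848, CpG B and poly I:C ran from 0 to 1 each, the 1 being Pim1 without either HL7G array. In the fit with the mouse as a replicate block, 2 members were called with HL7G, since Socs3 was lost, and the block changed no other call of a member. Over all genes, 2024 of 11127 were called with HL7G, 457 of the 1337 with a mean level of at least 6, 3298 without the HL7G array of mouse 2 and 1342 without that of mouse 1. It was 2 without the unstimulated array of mouse 1 and 862 without that of mouse 2. With R848, CpG B and poly I:C 0 genes were called, but 576, 120 and 11 with quantile normalization, 1542, 528 and 198 without either HL7G array, 137, 86 and 89 without the unstimulated array of mouse 2, 95, 2 and 2 with a variance trend, 51, 2 and 0 with loess, and 5, 0 and 2 with the block. Levels under 5, as on the second probe sets, are near the arrays' medians, and signal over background limits what can be read there. The share of called genes that were higher was 89.6%, against 78.4% with centred arrays, 68.7% with loess and 57.6% with quantile normalization, and the median of all genes was 0.06, -0.07, -0.08 and -0.12.

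For the members, 425 of 487 values under other settings kept their direction and their side of the threshold, 14 lost a call, 6 gained one and 42 changed sign. For the other named genes 263 of 312 kept both, 44 lost a call, 3 gained one and 2 changed sign. None of the values that changed sign was called, with or without the change, and the cause was not tested.

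With HL7G against unstimulated cells, the mean of all probe sets turned Socs2 (0.44) and Cish (0.16), loess turned Pim2 (-0.14) and Stat5a (-0.11), and quantile normalization turned Pim2 (-0.0076) and Stat5a (-0.061). With R848, Socs2 turned with centring (-0.017), loess (-0.021) and quantile normalization (-0.084), Cish with the mean of probe sets (0.15) and Pim2 with loess (-0.11). With CpG B, Cish turned with centring (-0.041), loess (-0.14), quantile normalization (-0.18) and the block (-0.085), and ran from -0.064 to 0.11 with 1 array left out. Pim2 turned with loess (-0.42) and quantile normalization (-0.20), and ran from -0.025 to 0.24. With poly I:C, Socs2 turned with centring (-0.034), loess (-0.029), quantile normalization (-0.073) and the block (-0.040), and ran from -0.021 to 0.035. Cish turned with loess (-0.069), quantile normalization (-0.079), the mean of probe sets (-0.029) and the block (-0.040), and ran from -0.018 to 0.15, and Pim2 turned with loess (-0.030).

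With HL7G against the mean of the agonists, the mean of probe sets turned Socs2 (0.047), Cish (0.096) and Pim1 (-0.057), quantile normalization turned Socs3 (-0.072), Pim1 (-0.035) and Pim2 (-0.060), and the block turned Socs1 (0.11) and Cish (0.047). With 1 array left out Socs1 ran from -0.34 to 0.19, Cish from -0.19 to 0.068 and Pim1 from -0.46 to 0.97. With R848 and CpG B against poly I:C, the mean of probe sets turned Socs2 (0.078), Socs3 (0.10) and Cish (0.13).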
